A study of Mus musculus with 10 samples.

Results

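The cells of day 8 of C6FAE treatment were set against those of day 6, and 62 of the 72 day 8 cells and 86 of the 96 day 6 cells entered the comparison, 148 of the 670 cells kept from 808 deposited in 12 name groups. Members were chosen by their cell names, d8 for day 8 and d6p for day 6, and by a minimum of 4000 detected genes, which removed 10 cells on each day. All were mouse embryonic fibroblasts under C6FAE, a cocktail of the GSK3 inhibitor CHIR99021, the ALK5 inhibitor abbreviated 6, the adenylyl cyclase activator Forskolin, the retinoic acid receptor agonist AM580 and the Dot1l inhibitor EPZ004777. Neither day had an untreated group beside it, so time in culture and time under the cocktail cannot be told apart. Differences in the handling of the cells of each day, or in batch, cannot be told apart from these either. Cells were picked by hand after digestion. Day 5 cells, day 12 cells and the d8c cells, which came from colonies seen on day 8, are given beside them only for the level of a gene. What the letter p stands for in d6p is not given in the sources used here. The medium was renewed every 4 days, and whether the day 8 cells were picked before or after a renewal is not given either.

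The cocktail turns fibroblasts towards extraembryonic endoderm (XEN)-like cells, which resemble the primitive endoderm lineage that lines the yolk sac. Fibroblasts are collagen-making mesenchymal cells held by transcription factors such as *Osr1*, *Prrx1* and *Twist2*, whereas *Sox17*, *Sall4*, *Gata4* and *Gata6* belong to the XEN programme. Forskolin raises cAMP, which activates protein kinase A and the transcription factor CREB. CREB binds the cAMP response element and is known to drive immediate early genes, the genes that cells transcribe within minutes of a stimulus without new protein synthesis.

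The listed samples of the series are 10 batches, and nothing maps a cell to one of them, so the cells of a day were treated as 1 sample. No test was therefore possible and no p-value is given. Each gene is described by its difference in mean log2(CPM + 1) between the days, where CPM is the count of unique molecular identifiers (UMIs) of a gene per 1000000 UMIs of the cell, together with the spread over cells. Intervals for UMI sums and for shares of cells are exact 95% intervals and cover counting error only. The day 6 cells held 29666 to 6004864 UMIs each (median 411772) and the day 8 cells 17633 to 3259198 (median 676178). Medians of 7282 and 7760 genes were detected. Spike-in RNA (ERCC) took a median of 3.33% of the counts at day 6 and 6.12% at day 8. The fewest genes in a kept cell were 4067 at day 6 and 4105 at day 8, and the most in a removed cell 3808 and 3963. No 2 of the cells compared held the same counts. Cell numbers 1 to 48 and 49 upward gave a split within each day: 41 and 45 cells at day 6, and 42 and 20 at day 8. Whether the numbers follow plates or batches is not given in the sources used here.

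The immediate early gene *Fos*, the myosin light chain kinase gene *Mylk* and *Igfbp2*, which encodes a binding protein of insulin-like growth factors, were higher in day 8 cells than in day 6 cells, and the bone matrix gene *Ibsp* and the chromatin protein gene *Hmga2* were lower. Of 9337 genes with a mean of at least 1 on that scale on either day, 645 (6.91%) were over 1 higher at day 8 and 268 (2.87%) over 1 lower, while 8424 lay within 1. The median over all genes was 0.17, and differences over 2 were found for 46 genes that were higher and 16 that were lower. Higher genes thus made up 70.6% of the 913. That split depended on the scale: it was 68.5% with TMM factors and 66.8% with DESeq2 size factors, 45.3% for the ratio of mean CPM, and 14.3% when cells were scaled to their ERCC counts, with 168 genes higher, 1009 lower and a median of -0.30. It depended on the cell numbers as well, with 82.5% higher among cells numbered 1 to 48 (1322 higher and 281 lower, median 0.29) and 33.1% among the rest (538 higher and 1087 lower, median -0.11). Differences over 1 in both number ranges were seen for 232 of the 645 higher genes and 139 of the 268 lower genes, which were chosen on the cells of both ranges.

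**Figure D1:**
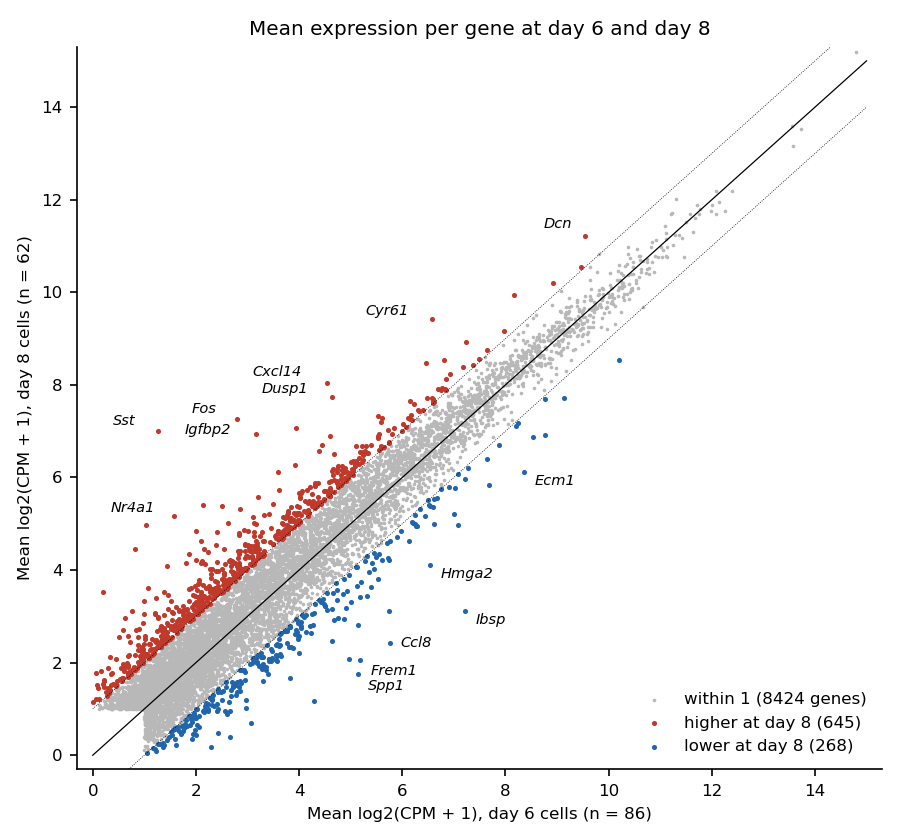
Mean log2(CPM + 1) of each of the 9337 genes in the 86 day 6 cells (horizontal axis) and the 62 day 8 cells (vertical axis). The labelled genes are a selection and not the largest differences in order. Dotted lines mark a difference of 1, and *Sst* (5.72) and *Fos* (4.45) lie far above the diagonal and *Ibsp* (-4.10) farthest below it.

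The AP-1 and Egr immediate early factors had the highest median difference of the gene lists with at least 5 measured members. *Fos* (mm9, chr12:86814840-86818223, + strand), a subunit of the AP-1 transcription factor, ranged from 0 to 721 CPM at day 6, with a median of 5.28, and from 25.4 to 931 at day 8, with a median of 154. All 62 day 8 cells held *Fos* UMIs against 61 of 86 day 6 cells, and 3 day 6 cells reached the day 8 median. Its difference was 4.45, or 6.87-fold in mean CPM (34.7 and 238). The UMI sums behind it were 1307 (1237 to 1380) and 12989 (12767 to 13214). When every cell was thinned to 50000 UMIs, 39.5% of the 81 day 6 cells deep enough and 100% of the 59 day 8 cells still held *Fos*. The gap was thus seen at equal depth, and it was 4.35 and 4.64 in the 2 number ranges and 3.94 on the ERCC scale.

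*Nr4a1*, an orphan nuclear receptor induced by cAMP and growth factors, had a median of 0.857 CPM at day 6 (0 to 184) and 34.3 at day 8 (0 to 500), a difference of 3.60. *Dusp1*, a phosphatase that switches off MAP kinases, went from a median of 29.3 CPM (0 to 914) to 246 (21.5 to 1130), a difference of 3.10. *Egr1*, a zinc finger immediate early factor, went from 0.780 (0 to 56.9) to 11.7 (0 to 451), a difference of 2.65. In each of these 3 genes the days overlapped, but only 8, 8 and 11 of the 86 day 6 cells reached the day 8 median. The AP-1 partners *Junb* (2.25), *Jun* (1.62) and *Fosb* (1.77), the early gene *Ier2* (2.31), *Ier3* (1.39) and the growth regulator *Myc* (1.36) were also higher. *Jun* overlapped more widely, with 26 day 6 cells at or over the day 8 median and a highest day 6 cell (2207 CPM) above every day 8 cell (892 at most).

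Of the 14 AP-1 and Egr factors listed, 10 passed the minimum and 8 of these were over 1 higher, with none over 1 lower, against 6.91% and 2.87% of all genes. *Jund* (0.83) and *Fosl2* (0.58) lay under the threshold, and *Atf3*, *Egr2*, *Egr3* and *Fosl1* did not reach the minimum. The median of the list was 1.69, beside 0.17 for all genes, and it was 1.97 and 1.60 in the number ranges, 1.56 after thinning and 1.36 on the ERCC scale. Summed over the list, a day 6 cell held 27.9 to 2319 CPM (median 390) and a day 8 cell 299 to 3454 (median 1004). Of the day 8 cells 59 of 62 exceeded the day 6 median, and 6 of 86 day 6 cells exceeded the day 8 median. Day 6 was lower than the neighbouring days, where the summed medians were 1161 CPM at day 5, 3286 in d8c cells and 2757 at day 12. The mean log2 level of *Fos* was likewise 6.28 at day 5, 2.81 at day 6 and 7.25 at day 8. *Egr1* was 4.51, 1.43 and 4.08 on these days, so that with day 5 in place of day 6 it was 0.43 lower at day 8 and the list's median was -0.03. *Nr4a1* differed from this course, with 2.26 at day 5 and 1.57 at day 6 before 5.16 at day 8, 6.58 in d8c cells and 6.39 at day 12.

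**Figure D2:**
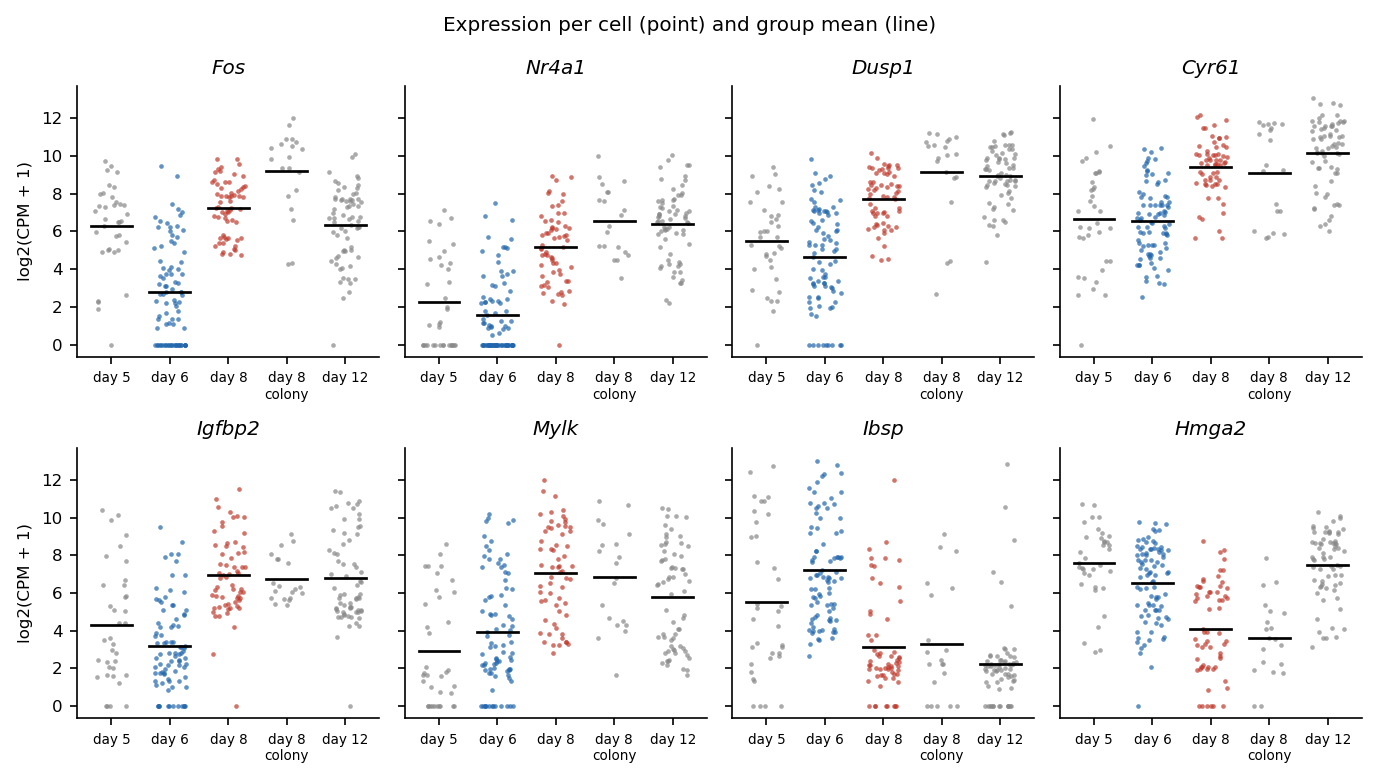
Expression as log2(CPM + 1) in cells of days 5, 6, 8 and 12 and in d8c cells (day 8 colony) for 8 genes, each point a cell and each line a group mean. The mean of *Fos* is 2.81 at day 6 and 7.25 at day 8, and that of *Ibsp* is 7.21 and 3.11.

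Promoter sequence is shown for 4 of the genes with the largest positive differences because CREB responds to cAMP, which Forskolin raises, and its known site can be read in letters. All 4 genes shown hold such a site. Forskolin was in the cocktail on both days, and whether it bears on any difference was not tested. The 250 bases before the RefSeq start (build GRCm38.p6) are given 5′ to 3′ on the strand of the gene, for *Fos* chr12:85473640-85473889 (+ strand), *Nr4a1* chr15:101266596-101266845 (+ strand), *Dusp1* chr17:26508473-26508722 (- strand) and *Sst* chr16:23890845-23891094 (- strand). Capitals mark the full cAMP response element TGACGTCA and its shorter core TGACG on either strand, which reads CGTCA where it lies on the opposite strand.
Fos: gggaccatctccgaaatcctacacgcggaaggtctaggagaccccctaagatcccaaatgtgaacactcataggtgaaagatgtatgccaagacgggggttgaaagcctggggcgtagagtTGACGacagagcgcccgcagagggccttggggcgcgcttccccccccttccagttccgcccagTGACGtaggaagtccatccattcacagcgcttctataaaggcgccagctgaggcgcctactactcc
Nr4a1: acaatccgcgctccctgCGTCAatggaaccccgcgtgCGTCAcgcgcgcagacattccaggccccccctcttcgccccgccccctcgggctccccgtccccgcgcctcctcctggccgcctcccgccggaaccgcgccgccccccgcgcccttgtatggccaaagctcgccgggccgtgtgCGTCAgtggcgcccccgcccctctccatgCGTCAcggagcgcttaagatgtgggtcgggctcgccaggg
Dusp1: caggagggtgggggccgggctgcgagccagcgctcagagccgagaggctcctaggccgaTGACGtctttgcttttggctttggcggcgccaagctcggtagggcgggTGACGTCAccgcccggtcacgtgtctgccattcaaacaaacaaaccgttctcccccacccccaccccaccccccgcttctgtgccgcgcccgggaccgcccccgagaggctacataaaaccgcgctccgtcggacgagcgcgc
Sst: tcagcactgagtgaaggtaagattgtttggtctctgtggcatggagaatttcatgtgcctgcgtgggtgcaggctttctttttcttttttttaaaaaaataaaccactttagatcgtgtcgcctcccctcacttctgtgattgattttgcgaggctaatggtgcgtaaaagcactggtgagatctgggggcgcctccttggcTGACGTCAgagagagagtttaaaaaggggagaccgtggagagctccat
*Fos* held core sites that begin 129 and 66 bases before the start. *Nr4a1* held 4 core sites, all on the opposite strand, whose marked letters begin 233, 213, 69 and 40 bases before the start. *Dusp1* held a full element 143 bases and a further core site 191 bases before the start, and *Sst* a full element 48 bases before it. Searched on both strands in RefSeq windows that also take in 50 bases after the start, the full element was found in 1.79% of 32851 windows and the core site in 20.8%, with 2 or more core sites in 5.01% and 4 or more in 0.231%. A full element counts as a pair of overlapping core sites. Among the 15 largest positive differences 12 genes had a window, of which 2 held the full element and 7 the core site (*Cyr61*, *Cryaa*, *Csrp3*, *Dusp1*, *Fos*, *Nr4a1* and *Sst*). Among the 15 largest negative differences 13 had a window, of which 0 held the full element and 3 the core site (*Arhgdib*, *Ibsp* and *Mgll*). A gene was counted here if any of its windows held the site, whereas the shares above are of single windows. The counts and the shares are thus not like for like, and enrichment was not tested. Among the genes with positive differences, *Sst*, *Cryaa* and *Csrp3* had differences of 0.05, 1.21 and 0.81 when values under 1% of the highest cell of each day were set to 0. These are matches of letters only, and binding was not measured.

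Of 14 measured targets of SRF and YAP, factors that respond to the actin cytoskeleton and to cell tension, 6 were over 1 higher and none over 1 lower, against 6.91% and 2.87% of all genes. *Cyr61* (mm9, chr3:145309935-145312949, - strand), a secreted matricellular protein and a YAP target, ranged from 4.65 to 1388 CPM at day 6 (median 94.0) and from 48.5 to 4705 at day 8 (median 800), a difference of 2.86. *Mylk*, the kinase that phosphorylates myosin light chain, is not on this list. It had a median of 8.35 CPM at day 6 (0 to 1153) and 153 at day 8 (5.94 to 4076), a difference of 3.13. *Cnn1*, the smooth muscle calponin, went from a median of 5.36 (0 to 483) to 38.8 (0 to 1591), a difference of 2.48. The days overlapped for all 3, with 6, 17 and 13 of 86 day 6 cells at or over the day 8 median.

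The median of the SRF and YAP list was 0.92. Besides *Cyr61* and *Cnn1* the members over 1 higher were the tropomyosin *Tpm2* (1.22), the regulatory light chain *Myl9* (1.20), the gamma smooth muscle actin *Actg2* (1.08) and the calponin *Cnn2* (1.05). *Acta2* (0.90), *Ctgf* (0.92) and *Tagln* (0.63) were on the same side without passing 1. The number ranges gave list medians of 1.09 and 0.51, and the ERCC scale 0.40 with 2 members over 1. With d8c cells in place of day 8 cells the median was -0.18, with 2 members over 1 higher and 1 over 1 lower. Per cell the list summed to 420 to 15291 CPM at day 6 (median 1906) and 610 to 23373 at day 8 (median 4137), and the 2 ranges overlapped over most of their width. Day 6 was below the neighbouring groups here too, with summed medians of 2643 CPM at day 5, 2646 in d8c cells and 5008 at day 12. With day 5 in place of day 6 the list's median was 0.46, with 6 members over 1 higher and 0 over 1 lower. For *Actg2* the difference was 0.16 when values under 1% of the highest cell of each day were set to 0 (the 1% rule, chosen after seeing the data).

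**Figure D3:**
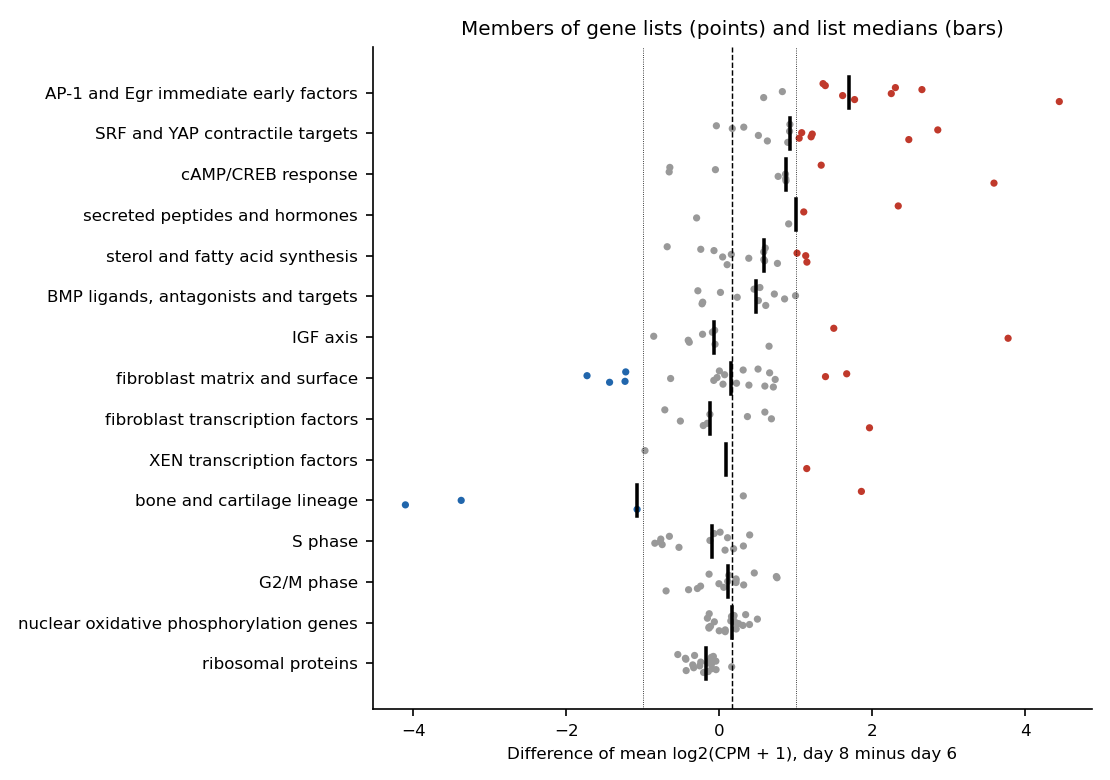
Difference in mean log2(CPM + 1), day 8 minus day 6, of each measured member (points) of 15 gene lists, with the list medians (bars). The dashed line is the median of all genes (0.17) and dotted lines mark 1 and -1, and the immediate early list (1.69) lies farthest to the right and the bone and cartilage list (-1.07) farthest to the left.

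Several single genes of secreted and matrix proteins were among the largest positive differences. *Igfbp2* (mm9, chr1:72871077-72899048, + strand), which binds insulin-like growth factors in the medium, ranged from 0 to 711 CPM at day 6 (median 5.87) and from 0 to 2934 at day 8 (median 111), a difference of 3.78. *Cxcl14*, a chemokine, went from a median of 16.7 (0 to 1452) to 206 (20.8 to 8072), a difference of 3.51. *Dcn*, the small proteoglycan decorin that binds collagen fibrils, went from 753 (51.6 to 9464) to 3472 (103 to 11897), a difference of 1.67. In these genes 8, 12 and 11 of the 86 day 6 cells reached the day 8 median. *Sbspon*, a thrombospondin-repeat protein (3.28), the surface antigen *Ly6a*, known as Sca-1 (2.88), *Col11a1*, a chain of the fibril-forming collagen XI (2.85), the matrix protease *Adamts1* (2.39), *Edn1*, the precursor of the vasoconstrictor endothelin-1 (2.34), and *Nkd2*, an inhibitor of Wnt signalling (2.34), were higher too. *Lox*, the enzyme that crosslinks collagen, went from a median of 40.8 to 100 CPM, a difference of 1.39. *Igfbp7*, a further binding protein, was 1.50 higher. *Igfbp2* and *Igfbp7* were the 2 of 10 measured genes of the IGF axis that were over 1 higher, against 6.91% of all genes. The list's median was -0.07.

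Not all matrix genes were on that side. Of 20 fibroblast matrix and surface genes, all measured, 2 were over 1 higher (*Dcn* and *Lox*) and 4 over 1 lower, against 6.91% and 2.87% of all genes. The median of the list was 0.15. Per cell, however, the list summed to 2886 to 49699 CPM at day 6 (median 11867) and 1348 to 41556 at day 8 (median 19477). Of the 62 day 8 cells 48 exceeded the day 6 median, and 16 of the 86 day 6 cells exceeded the day 8 median. *Col6a1*, a chain of the microfibrillar collagen VI, had a median of 567 CPM at day 6 (101 to 4113) and 257 at day 8 (26.2 to 1218), a difference of -1.43. Its partner chain *Col6a2* differed by -1.23, from a median of 180 to 96.4 CPM. *Postn*, the matricellular protein periostin, differed by -1.73 and the proteoglycan *Bgn* by -1.22, the latter with -0.33 and -2.30 in the number ranges. *Col6a1* and *Col6a2* were also lower in each number range, by at least 1.05, whereas *Col6a3*, a further collagen VI chain on the list, lay within 1.

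The largest negative difference was that of *Ibsp* (mm9, chr5:104728190-104740488, + strand), bone sialoprotein, a matrix protein of mineralising bone. It was found in 86 of 86 day 6 cells at 5.30 to 8260 CPM (median 112) and in 54 of 62 day 8 cells at 0 to 4045 (median 3.64). The difference was -4.10, with -3.89 and -4.76 in the number ranges and -3.69 under the 1% rule. Its UMI sums were 34830 (34465 to 35198) at day 6 and 3915 (3793 to 4040) at day 8, and a single day 8 cell held 63.5% of the summed CPM of that day. Every day 6 cell was above the day 8 median, and 8 of 62 day 8 cells were at or above the day 6 median. Its mean log2 level was 5.54 at day 5, 7.21 at day 6, 3.11 at day 8, 3.30 in d8c cells and 2.23 at day 12. Of the 5 bone and cartilage genes measured (11 listed), *Ibsp*, *Spp1* and the osteoblast factor *Runx2* (-1.07) were over 1 lower. The homeobox gene *Msx2* (1.86) was over 1 higher, and the shares of all genes were 2.87% lower and 6.91% higher. The list's median was -1.07. The median turned to 0.26 under the 1% rule, which moved *Spp1* to 0.26.

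*Hmga2* (mm9, chr10:119798331-119913525, - strand), a chromatin protein of proliferating embryonic cells, had a median of 127 CPM at day 6 (0 to 879) and 13.8 at day 8 (0 to 430), a difference of -2.44. Its mean log2 level was 7.59 at day 5, 6.55 at day 6, 4.11 at day 8, 3.62 in d8c cells and 7.50 at day 12, so days 5 and 12 both stood above day 8. *Frem1*, a basement membrane protein, went from a median of 38.6 to 1.53 CPM (-3.13), *Mgll*, the lipase that degrades monoacylglycerols, from 26.2 to 2.18 (-2.88) and *Arhgdib*, a GDP dissociation inhibitor of small GTPases, from 45.9 to 5.18 (-2.63). *Ecm1*, a secreted matrix protein, went from 279 (47.7 to 13452) to 75.0 (7.06 to 6682), a difference of -2.25. For these genes between 5 and 11 of the 62 day 8 cells were at or above the day 6 median. *Crabp2*, which carries retinoic acid in the cytoplasm, went from 465 to 109 CPM (-1.66), and the enzyme *Ada*, adenosine deaminase, from 28.8 to 4.28 (-2.33). *Mgll* stood at 1.54 on the mean log2 scale at day 5, 4.96 at day 6 and 2.08 at day 8, and *Crabp2* at 6.77, 8.53 and 6.87, so both stood higher at day 6 than at days 5 and 8. *Car3*, a carbonic anhydrase of muscle and fat, differed by -3.11 (-1.41 under the 1% rule), *Pnoc*, the precursor of the peptide nociceptin, by -2.37, *Nt5dc2* by -2.17, *Sptssb*, a subunit of serine palmitoyltransferase, by -2.16 and *Pvalb*, the calcium binding protein parvalbumin, by -2.12.

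Some genes had low values in nearly all cells of a day while 1 or a few cells were very high. *Sst* (mm9, chr16:23889667-23890930, - strand), the peptide hormone somatostatin, had the largest positive difference of all, 5.72. It ranged from 0 to 402 CPM at day 6 (median 0.842) and from 40.6 to 117724 at day 8 (median 82.7), where 1 cell held 90.5% of the summed CPM of the day and *Sst* made up 11.8% of that cell's UMIs. The next day 8 cell had 1721 CPM, and the other cells had a median of 0.0702% of the highest. Setting values under 1% of the highest cell to 0 left a difference of 0.05. All 62 day 8 cells thus had *Sst* UMIs, nearly all at a small share of the level of 1 cell. Whether such UMIs crossed from one cell's library to another was not tested, so they are not read as expression in each cell. The d8c cells had 33.2 to 192 CPM (median 73.3), while the mean log2 level was 0.12 at day 5 and 0.12 at day 12. Over the 61 other day 8 cells the *Sst* UMIs followed depth (Spearman rank correlation 0.81, a description over cells that share a day), and their median was 94.7 CPM in numbers 1 to 48 and 66.0 in the rest.

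*Cryaa*, the lens chaperone alpha-crystallin, had a day 8 median of 24.7 CPM and a highest cell of 3178 (difference 3.93, 1.21 under the 1% rule). *Csrp3*, the muscle LIM protein, had a median of 8.31 and a highest cell of 2955 (3.33, 0.81 under the rule), and *Nppc*, the precursor of C-type natriuretic peptide, 13.4 and 2468 (3.64 and 1.96). On the falling side the chemokine *Ccl8* had 6.23 to 14697 CPM at day 6 (median 33.0) and 0 to 449 at day 8 (median 2.97), and its difference of -3.34 became 0.05 under the rule. *Spp1*, osteopontin, had 0 to 20483 CPM at day 6 and 0 to 936 at day 8 (-3.37, then 0.26), and *Ppbp*, a platelet chemokine, reached 8632 CPM in a cell with 92.0% of the day 6 sum (-2.27, then 0.21). Genes with a highest cell of at least 1000 CPM that held over 80% of the sum numbered 24 at day 6 and 12 at day 8, and the median of the other cells was 0 in 23 and 7 of them. In none did that median exceed 0.0614% of the highest cell at day 6 or 0.0958% at day 8. In contrast the differences of *Fos* (4.99), *Igfbp2* (4.32), *Cyr61* (3.09), *Cxcl14* (3.02) and *Mylk* (2.93) were kept under the 1% rule. The rule also sets low day 6 values to 0, which can enlarge a difference, and those of *Fos*, *Igfbp2* and *Cyr61* were larger under it. A kept difference is therefore no check on the day 6 values. What gave the shared low values was not tested.

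**Figure D4:**
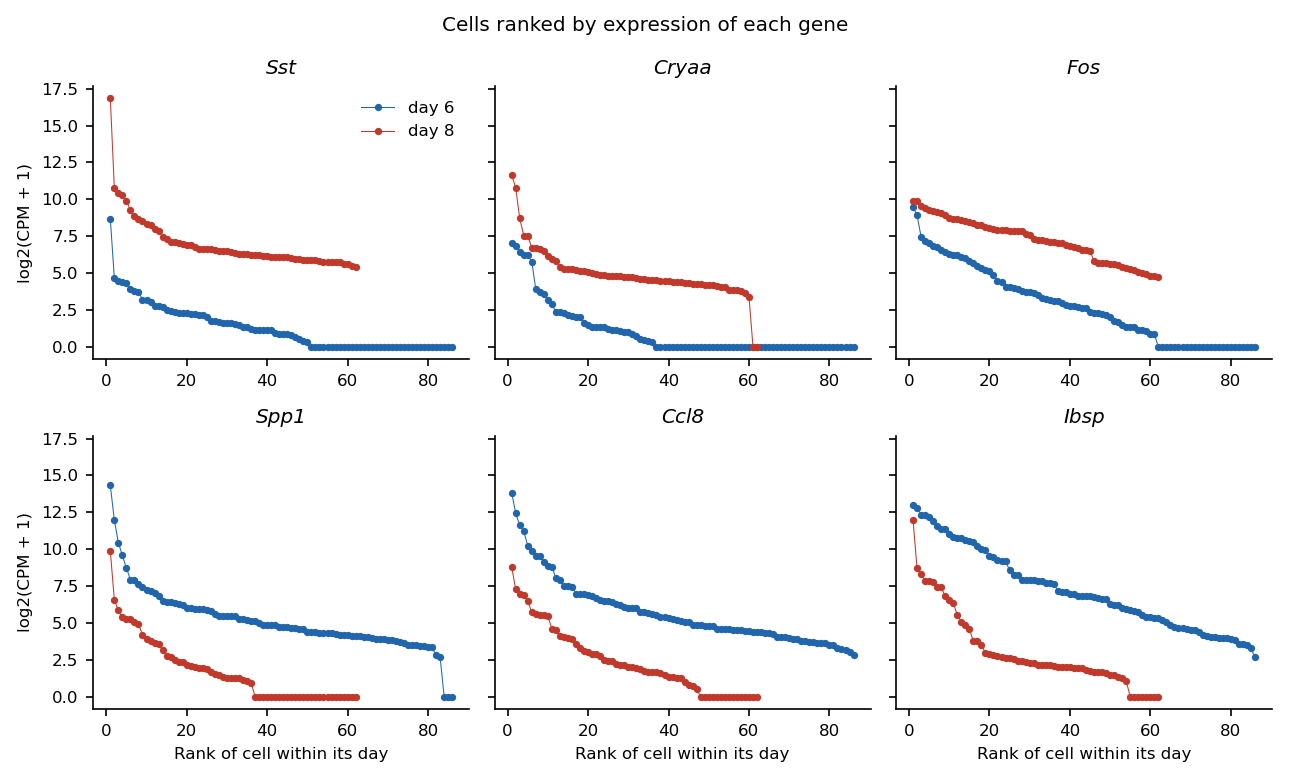
Expression as log2(CPM + 1) of every cell (vertical axis) against its rank within day 6 or day 8 for 6 genes. At day 8 *Sst* drops from 117724 CPM in the highest cell to 1721 in the next and levels off, down to 40.6, whereas *Fos* declines gradually from 931 to 25.4 CPM.

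Of the XEN transcription factors, 2 of 8 passed the minimum. *Sox17* was 1.15 higher, but 0.60 after thinning, 0.29 in cells numbered 49 upward and 0.55 under the 1% rule. *Gata6* differed by -0.97, with UMIs in 51.2% of day 6 cells and 33.9% of day 8 cells. *Foxa2* and *Hnf4a* had no UMI in either day. Among the XEN and yolk sac products 1 of 13 measured genes was over 1 higher and 2 over 1 lower, against 6.91% and 2.87% of all genes. The median of that list was 0.04.

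Among fibroblast transcription factors 1 of 9 measured genes was over 1 higher and none over 1 lower, against 6.91% and 2.87% of all genes. *Osr1*, a zinc finger factor of embryonic mesenchyme, went from a median of 3.42 CPM (0 to 589) to 16.2 (0 to 1437), a difference of 1.97 that was 1.36 on the ERCC scale, and 26 of the 86 day 6 cells reached the day 8 median. *Twist2* (0.68), *Zeb1* (0.60), *Snai2* (-0.12), *Prrx1* (-0.21), *Twist1* (-0.51) and *Zeb2* (-0.71) were within 1. *Snai1* (0.37) and *Prrx2* (-0.15) went opposite ways in the number ranges, at 1.64 and -1.92 and at 0.79 and -1.45. The median of the list was -0.12, beside 0.17 for all genes.

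**Figure D5:**
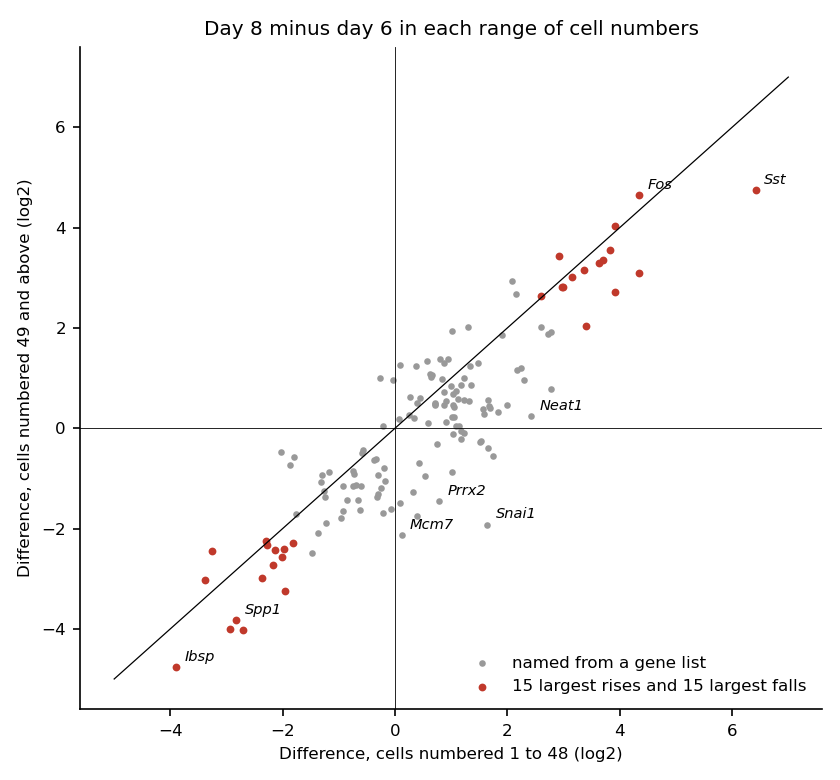
Difference in mean log2(CPM + 1), day 8 minus day 6, in cells numbered 1 to 48 (horizontal axis) and 49 upward (vertical axis) for the genes named by the fixed rule, each point a gene and the line marking equal differences. *Fos* (4.35 and 4.64) and *Ibsp* (-3.89 and -4.76) lie near the diagonal, and *Snai1* (1.64 and -1.92) lies off it.

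Lists for pathways that the cocktail targets, and other signalling lists, are to be read against the 6.91% of all genes over 1 higher and the 2.87% over 1 lower. In the cAMP and CREB list 2 of 9 measured genes passed 1, *Nr4a1* and the G protein regulator *Rgs2* (1.34), with a median of 0.87. That median was 0.39 on the ERCC scale and -0.82 with day 5 in place of day 6, where 3 members were over 1 higher and 2 over 1 lower. Of the 12 Wnt/beta-catenin targets 2 were over 1 higher and 1 over 1 lower (median 0.27), of the 10 measured retinoic acid genes 1 and 1 (median -0.08) and of the 10 measured TGF-beta genes 1 and 1 (median -0.05). In the sterol list 3 of 15 measured genes were over 1 higher, namely the synthesis enzymes *Idi1* (1.15), *Dhcr7* (1.13) and *Msmo1* (1.02). The list's median was 0.58, but on the ERCC scale it was -0.01, with 0 members over 1 higher and 1 over 1 lower. *Adm*, the vasodilator adrenomedullin, was 1.11 higher and with *Edn1* made up the 2 of 4 measured members of the secreted peptide list over 1 higher. *Sst*, *Nppc* and *Pnoc* are not on that list.

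No member passed 1 on either side among 14 S phase genes, 16 G2/M genes, 21 nuclear oxidative phosphorylation genes, 20 ribosomal protein genes, 12 BMP genes or 15 lysosome genes. The BMP list nevertheless had a median of 0.49, with 0.84 and 4 members over 1 in cells numbered 1 to 48 and -0.19 and 0 members in the rest. Per cell it summed to a median of 1671 CPM at day 6 and 3126 at day 8, and 51 of the 62 day 8 cells exceeded the day 6 median. With day 5 in place of day 6 its median was -0.95, with 6 members over 1 lower. The cell cycle lists had medians of -0.09 and 0.12, yet they went apart in the number ranges, where S phase genes had 0.42 and -1.03 and G2/M genes 0.71 and -0.67. Oxidative phosphorylation genes had a median of 0.16 and ribosomal protein genes of -0.17, beside 0.17 for all genes.

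Markers of other cell types were scarce. None of 7 endothelial, 8 macrophage and 5 red cell markers passed the minimum, and 2, 5 and 5 of them had no UMI in either day. Macrophage markers summed to a median of 0 CPM per cell on both days (highest 151 and 127), and endothelial markers to 2.36 and 0 (highest 99.0 and 197). Of the 7 neural and Schwann markers 2 passed the minimum, neither over 1, and the list summed to medians of 1.36 and 1.83 CPM (highest 309 and 308). Mesothelial markers had medians of 4.57 and 1.68 CPM (highest 1159 and 357), and 2 of the 5 passed the minimum. Of these *Krt19*, a keratin, differed by -1.23 and the other member by 0.47. Under the 1% rule neither was over 1 on either side, and their median was 0.29. *Neat1*, a nuclear noncoding RNA on the RNA quality list, was 1.76 higher, with 2.43 and 0.24 in the number ranges. Its part in the other differences was not tested.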

How the data were processed

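Single-cell RNA-seq of polyadenylated RNA was deposited by the authors as a table of UMI counts per gene and cell, with mm9 as the genome build per the labels. Aligner, counter and any earlier cell filter are not given in the sources used here. Of 23293 entries, 92 ERCC spike-ins and 4 entries with duplicated names were left out of library sizes, and 26 names turned into dates were not named. No mitochondrial gene and no *Hmgcs1* entry was used here. Counts were scaled to CPM, log2(CPM + 1) was averaged over the cells of a day with at least 4000 genes, and genes with a mean of at least 1 on either day were compared. Since all cells were treated as 1 sample, no test was run. UMIs per cell ran from 17633 to 6004864, so values of shallow cells are the least precise.

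The members and lists were chosen with earlier results of these data known. Genes were named by rule as the 15 largest differences on each side, the 3 largest absolute differences in each list, all XEN and fibroblast transcription factors, and the 5 largest rises and falls in the ratio of mean CPM at a mean of at least 100 CPM. Further list members are named as part of their list. An item is not reported here and was taken out of its list after its values were seen. The computation was tested on simulated data for 86 and 62 cells and 11072 genes, where it found each of 200 genes with an 8-fold change and passed 0 of 10872 others. Both simulated days were drawn from the mean day 6 profile, with the same cell-to-cell spread set for every gene. Very high single cells and differences between number ranges were not simulated. The simulation thus tests the arithmetic and gives no rate of false calls in these data. Alternatives were other gene minimums, pseudocounts, scalings (TMM from edgeR, size factors from DESeq2, ERCC counts), thinning to 50000 UMIs, medians, ratios of means, other thresholds and subsets of cells. The 1% rule, which sets CPM values under 1% of the highest cell of the gene on that day to 0, and leaving out cells with over 50% ERCC counts were chosen after seeing the data. Python 3.11.15, numpy 2.4.6, pandas 2.3.3, scipy 1.17.1, R 4.3.3, edgeR 4.0.16 and DESeq2 1.42.0 were used. Gene positions came from the mm9 annotation of GENCODE and promoter sequences from RefSeq.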

Additional observations from a re-analysis of the deposited data

Results flagged for a closer look

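The cells left out for having fewer than 4000 genes, 10 on each day, lie outside the comparison. They held differences in the same direction as the deeper cells in 8 genes that were looked at. These 8 genes had large differences in the kept cells, and the cells left out came from the same days. The values are thus no independent check, and the low *Sst* values are not read as expression in each cell. The median depth of the cells left out was 13915 UMIs at day 6 and 18130 at day 8. In these cells the difference in mean log2(CPM + 1), day 8 minus day 6, was 6.47 for *Sst* (UMIs in 3 day 6 and 10 day 8 cells), 3.26 for *Fos* (4 and 8 cells) and 2.65 for *Cyr61* (7 and 10). It was 4.26 for *Igfbp2* (3 and 8), 3.52 for *Mylk* (3 and 8) and 5.89 for *Cxcl14* (6 and 10). It was -6.27 for *Ibsp* (10 and 2) and -3.46 for *Hmga2* (8 and 4). Other genes were not looked at in the cells left out.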

How the results depend on the processing

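No paired analysis was possible because the cell names carry no batch. The 645 higher and 268 lower genes became 96 and 35 with a pseudocount of 10, 168 and 1009 on the ERCC scale, 1550 and 613 for differences of medians, and 46 and 16 at a threshold of 2. The lower genes became 171 with a minimum of 3, 697 for the ratio of mean CPM and 1087 in cells numbered 49 upward, and the higher genes 1322 in cells numbered 1 to 48. With day 5 in place of day 6 there were 2325 lower genes, and with d8c in place of day 8 1465. Of 77 named genes past 1, 74 kept that call with TMM, 74 with DESeq2 factors, 61 on the ERCC scale, 65 after thinning, 44 with a pseudocount of 10, 69 in numbers 1 to 48, 58 in the rest and 59 under the 1% rule. The sign turned with day 5 in place of day 6 for *Egr1* (-0.43), *Ccl8* (0.89), *Car3* (0.23), *Mgll* (0.54), *Postn* (0.22), *Tgfbi* (-1.01), *Sp5* (-2.29), *Wif1* (-0.66), *Sfrp1* (1.54), *Dkk2* (-0.0156), *Rgs2* (-1.55), *Crabp2* (0.10), *Idi1* (-0.45), *Dhcr7* (-0.16), *Krt19* (0.23) and the AP-1 and Egr list (-0.0323). It turned with d8c cells for *Aldh1a1* (-0.10) and *Pdgfrb* (-0.42), and under the 1% rule for *Spp1* (0.26), *Ccl8* (0.047), *Ppbp* (0.21), *Wif1* (-0.0035), *Krt18* (-0.12) and the bone list (0.26). Among 42 list medians, which include many near 0, the sign turned in 21 on the ERCC scale, 16 with day 5 in place of day 6, 16 with d8c cells, 15 in cells numbered 49 upward and 7 under the 1% rule. Of the larger medians, day 5 also turned cAMP/CREB (-0.82) and BMP (-0.95). The d8c cells turned SRF and YAP (-0.18) and sterol (-0.20), the latter also on the ERCC scale (-0.0083). Day 5 turned smaller medians as well, among them Wnt/beta-catenin targets (-1.02) and G2/M genes (-1.73). The cause was not tested. Depth limits genes near 1 UMI per cell, where a zero does not show absence.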
